A study of Mus musculus with 3 samples.

Results

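The genes described here carry glucose into the cell, break it down to pyruvate and lactate, and store it as glycogen. They were a list of 39 mouse genes given by name, and every probe of the array whose gene symbol in the deposited table equalled a listed name was taken. By that rule 36 of the 39 genes had 53 probes, out of 20974 genes that could be named on the array. Where a gene had several probes, the one brightest on average across the arrays represents it. Hk2 and Ldhb had no probe under their symbols. For each, 1 probe designed on its RefSeq accession carried another name in the table, so their values are given separately and are not counted among the 36. No probe was matched to Eno1, which was not analysed here.

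RNA came from mouse cardiomyocyte preparations of 3 ages, all with the strain label eGFP α-MHC on DBA, in which α-MHC is the product of Myh6. The embryonic preparation was from embryonic days 11 to 12, the neonatal one from postnatal days 3 to 4, and the adult one from mice of 10 weeks or older. Hearts were pooled within each preparation and each age was read on 1 Illumina bead array. There are therefore no replicates, and no test between ages could be made. The study compared the ages with one another. Hearts were dissociated with Liberase, an enzyme blend, and the design text mentions FACS without naming a gate.

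Glycolysis splits glucose into pyruvate in the cytoplasm and yields ATP without oxygen. Early embryonic heart muscle is known to draw much of its ATP from glucose and lactate, and the heart turns to fatty acids after birth. Several steps are run by related enzymes of which one is typical of striated muscle and another of many or of other tissues. Glycogen is built on a glycogenin primer by glycogen synthase and branching enzyme, and is released by glycogen phosphorylase under control of phosphorylase kinase.

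The promoters of the genes with the largest differences are shown here because the results below turn on them. Pgam2 and Eno3 had the lowest adult minus neonatal differences of the list, and Gyg and Slc2a1 the lowest neonatal minus embryonic differences. Each line gives the 250 bases before the annotated start, 5′ to 3′, from RefSeq in build GRCm38.p6. Capitals mark every match on either strand to CANNTG, an E-box, to ACGTG, the core of the hypoxia response element, or to the MEF2 consensus site.
Pgam2, chr11:5803797-5804046, reverse strand: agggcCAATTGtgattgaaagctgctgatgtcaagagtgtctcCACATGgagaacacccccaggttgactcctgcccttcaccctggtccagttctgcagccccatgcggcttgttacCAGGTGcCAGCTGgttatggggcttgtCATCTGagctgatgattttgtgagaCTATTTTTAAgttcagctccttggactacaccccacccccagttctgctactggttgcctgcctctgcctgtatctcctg
Eno3, chr11:70656926-70657175, forward strand: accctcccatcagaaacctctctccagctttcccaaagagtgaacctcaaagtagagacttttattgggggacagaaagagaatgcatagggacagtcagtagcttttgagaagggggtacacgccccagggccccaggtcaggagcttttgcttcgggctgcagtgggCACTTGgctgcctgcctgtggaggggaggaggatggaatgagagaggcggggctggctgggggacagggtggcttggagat
Gyg, chr3:20155117-20155366, reverse strand: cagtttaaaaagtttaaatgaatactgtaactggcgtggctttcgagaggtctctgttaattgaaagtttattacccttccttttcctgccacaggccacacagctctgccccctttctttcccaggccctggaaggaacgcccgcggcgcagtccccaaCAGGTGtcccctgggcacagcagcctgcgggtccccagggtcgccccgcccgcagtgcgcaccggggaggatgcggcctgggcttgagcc
Slc2a1, chr4:119108495-119108744, forward strand: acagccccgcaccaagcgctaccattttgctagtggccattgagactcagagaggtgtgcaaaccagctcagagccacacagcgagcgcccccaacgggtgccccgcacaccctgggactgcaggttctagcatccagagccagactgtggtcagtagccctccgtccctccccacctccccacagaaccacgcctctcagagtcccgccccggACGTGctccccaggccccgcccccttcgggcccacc
The Pgam2 window held 5 matches to CANNTG and 1 to the MEF2 consensus, the Eno3 and Gyg windows 1 match each to CANNTG, and the Slc2a1 window 1 match to ACGTG. Promoter windows were found for 34 of the genes, 50 windows in all, with Hk2 and Ldhb included and the ambiguous Pgm1 and Pgm2 left out. ACGTG was present in 20 of the 50 windows, which belong to 16 of the 34 genes, against 16.6% of all 32851 windows. CANNTG was present in 70.0%, against 66.2% of all, and the MEF2 consensus in 4.0%, against 1.7%. ACGTG and CANNTG overlap where they read CACGTG. The members' windows were also richer in G and C, with a median of 59.8% against 52.4% in all windows. Their median count of the letters CG, which ACGTG contains, was 13 against 6. The part of this base content in the ACGTG share was not tested. Matches describe letters only, and no binding was measured.

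The label of cardiomyocytes held to different degrees on the 3 arrays. Of 14 cardiomyocyte markers, 14 were detected on the embryonic, 14 on the neonatal and 10 on the adult array, where Myh6, Ttn, Mybpc3 and Nkx2-5 were not detected. Their summed linear signal was 232041, 127524 and 6582 in the same order. Of 12 fibroblast markers, 5, 11 and 11 were detected, with summed signals of 1194, 159593 and 163090. Of 12 macrophage markers, 3, 10 and 11 were detected, with sums of 989, 19215 and 42238. Endothelial markers were detected for 4, 9 and 8 of 10, with sums of 1065, 6142 and 5572, and smooth muscle markers for 5, 7 and 6 of 8, with sums of 21898, 34359 and 27682. Erythroid markers were detected for 9, 4 and 3 of 11, with sums of 56584, 24447 and 26339. Of them Hbb-y, Hba-x and Hbb-bh1 were detected on the embryonic array alone. Hba-a1 read 14.17, 13.20 and 13.57 and Hbb-b1 read 13.19, 13.84 and 13.75. Skeletal muscle markers were detected for 3, 4 and 3 of 10, with sums of 4513, 617 and 556. The 4 of them measured between embryonic and neonatal had a median difference of -2.49, with Tnni2 at -3.91, Mylpf at -3.83, Tnnt3 at -1.15 and Actn3 at 0.82. Myh1, Myh2, Myh4, Myog, Myod1 and Mybpc2 were detected on no array. The part of these cell types in any difference below was not tested. A lower signal in a pooled preparation can come from fewer cells that express a gene or from less RNA per cell, which cannot be told apart here.

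The values below are log2 signals after background correction and quantile normalization, and each difference is a difference of log2 signals. The standard error after ± comes from the spread between the beads of a probe and covers the reading of 1 pair of arrays only. A gene was measured in a pair if its detection p was under 0.01 on at least 1 array, and was called higher or lower if the log2 values then differed by at least 1, which is 2-fold. Where a gene was detected on just 1 of both arrays compared, the fold is a lower bound against the lowest signal detected on the other array. Calls use the measured values, and of the genes of the list called with 1 side undetected, Phkg1 alone had bounds under 2-fold. Of the 36 genes, 30 were detected on the embryonic, 28 on the neonatal and 27 on the adult array. The lactate carriers Slc16a1 and Slc16a3, the bisphosphate enzyme gene Pfkfb1, the branching enzyme gene Gbe1 and Pgm1 were detected on none.

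Between the embryonic and the neonatal array almost the whole list was lower in the neonatal one. Of 30 measured genes, 25 were at least 2-fold lower (83.3%) and 0 higher, whereas 19.1% of all 10560 measured genes were lower and 21.9% higher. The median difference of the list was -1.68 and that of all measured genes -0.05. Differences ran from -4.66 for Gyg to 0.39 for Pfkfb2. Pfkm at -0.98 lay just short of the 2-fold line and Phkb at -1.02 just past it. Among calls over all genes, 53.4% were higher, or 62.2% where arrays were centred on their medians in place of quantile normalization.

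Between the neonatal and the adult array the list split. Of 29 measured genes, 5 were at least 2-fold lower (17.2%) and 2 higher, against 14.1% and 12.4% of all 10404 measured genes, so the list's shares lay near or below the background. The median difference was -0.41 for the list and -0.12 for all genes. The 5 lower genes were Pgam2, Eno3, Gys1, Pygm and Pfkm, all of them forms typical of striated muscle, and the 2 higher ones were Pfkp and Phkg1, the latter only at least 1.36-fold by its bound. Aldoa and Phka1, also counted as muscle forms, differed by 0.61 and 0.12. This pair of arrays was the most sensitive to the scaling. With median centring 17 of the 29 were lower and 1 higher, while the median of all genes also stood at -0.86 and 42.5% of all genes were lower. Calls over all genes were then 11.5% higher ones, against 46.7% with quantile normalization. Under that scaling the differences of Aldoa, Hk1, Pfkfb3, Phka1, Phkb, Pkm and Pygl changed from above to below 0, to between -0.18 for Hk1 and -0.68 for Pkm, and those of Pfkp, Phkg1, Eno2 and Hk2 stayed above 0. With only genes detected on both arrays, 3 of 26 were lower and 1 higher. Of all genes 9.28% were then lower and 10.8% higher, so these counts are near the background.

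Between the embryonic and the adult array, both used above, 23 of 31 measured genes were called lower in the adult (74.2%) and 1 higher, against 26.6% and 25.1% of all 10542 measured genes. The 1 higher gene was Phkg1, not detected on the embryonic array, whose bound was at least 1.08-fold. The median was -1.85, against -0.18 for all genes. Median centring gave -2.56 and -0.71, and 31.6% of calls over all genes were then higher ones, against 48.5%. Of the 31 genes detected on any array, 27 had their highest value on the embryonic array. Of the 31, 4 were at least 2-fold lower at both steps, and 18 were lower at the first step and under 2-fold at the second. These counts were not made over all genes, so no background share stands beside them.

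**Figure D1:**
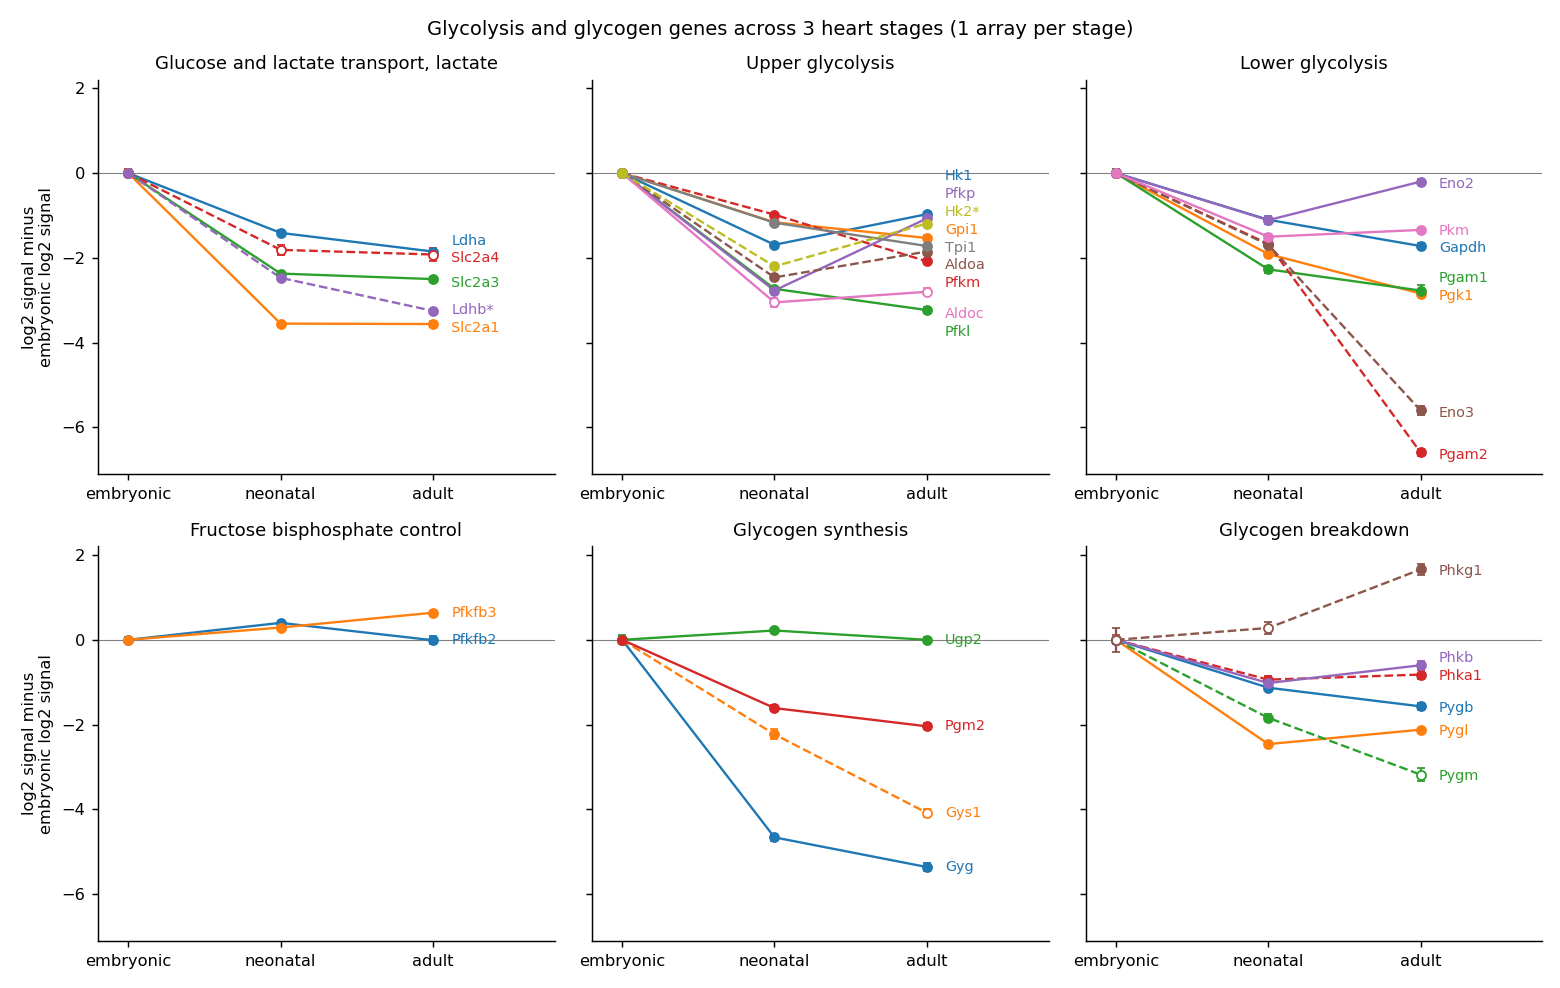
Log2 signal of each gene minus its own embryonic log2 signal, on the embryonic, neonatal and adult arrays (1 array each), in panels by function. Error bars are the bead standard error of each signal, open points were not detected, dashed lines are striated muscle or heart forms, and an asterisk marks genes matched by accession alone; Pgam2 and Eno3 end at -6.59 and -5.60, and Phkg1 at 1.66.

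Glucose enters heart cells through GLUT carriers, and all 3 carrier genes were lower in the neonatal array. Slc2a1, the GLUT1 carrier of many embryonic tissues, read 13.38 on the embryonic, 9.83 on the neonatal and 9.82 on the adult array. Only the embryonic value stood high. The first difference was -3.55 ± 0.09, and 69 of the 10560 measured genes were as low or lower. The second was -0.01 ± 0.08, or -0.85 with median centring. Slc2a3, the high-affinity carrier GLUT3, had the same order, with 11.43, 9.06 and 8.93 and a first difference of -2.37 ± 0.08. Slc2a4, the insulin-responsive GLUT4 of muscle and fat, read 7.62 on the embryonic array and was not detected on the others. The bound on its first difference was at least 3.23-fold. Erythroid markers had a median difference of -2.51 between embryonic and neonatal and of 0.01 between neonatal and adult. At the first step they spread widely, with Hbb-y at -8.50, Hba-x at -8.46, Hbb-bh1 at -8.31, Hba-a1 at -0.97 and Hbb-b1 at 0.65. Their part in the carrier values was not tested.

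Hexokinase traps glucose in the cell as glucose 6-phosphate. Hk1, the general hexokinase, read 12.92, 11.23 and 11.95 on the embryonic, neonatal and adult arrays. The neonatal array was lowest, with differences of -1.69 ± 0.06 and then 0.72 ± 0.06. Hk2, the insulin-responsive hexokinase of muscle, read 12.61, 10.41 and 11.42 by its accession-matched probe, with differences of -2.21 ± 0.06 and 1.01 ± 0.07. Both hexokinases were thus lowest in the neonatal array, and in both the adult value was below the embryonic one, by -0.97 ± 0.06 for Hk1 and -1.19 ± 0.06 for Hk2. With median centring the second differences were -0.18 for Hk1 and 0.12 for Hk2, so that under this scaling Hk1 turned direction and neither differed by 2-fold.

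Phosphofructokinase is the main control point of the pathway and exists as liver, muscle and platelet subunits. Pfkl, the liver-type subunit, read 13.20, 10.47 and 9.97, with a first difference of -2.73 ± 0.08. Pfkm, the muscle subunit, read 12.77, 11.79 and 10.69, with differences of -0.98 ± 0.06 and -1.10 ± 0.06. A second, dimmer Pfkm probe read 8.70 on the embryonic array and was not detected on the others, at least 6.79-fold lower in the neonatal one. The probes therefore disagree on how much of the Pfkm difference lies at the first step. Pfkp, the platelet-type subunit, read 11.17, 8.40 and 10.10. Its first difference was -2.77 ± 0.09 and its second 1.70 ± 0.08, or 0.86 with median centring. Pfkp was thus lowest in the neonatal array and had the larger of the 2 differences called higher in the adult. Macrophage markers were higher in the adult than in the neonatal array by a median of 0.84. They were also higher in the neonatal than in the embryonic array, by a median of 4.91, where Pfkp was lower. Their part in the Pfkp values was not tested.

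The other genes of the upper part changed less evenly. Gpi1, for glucose phosphate isomerase, read 13.69, 12.53 and 12.16 and Tpi1, for triosephosphate isomerase, 14.26, 13.09 and 12.54. Their first differences were -1.15 ± 0.07 and -1.16 ± 0.09, near the 2-fold line. Aldoa, the aldolase of muscle and many other tissues, read 14.45, 11.99 and 12.60, with a first difference of -2.46 ± 0.10. Aldoc, the brain-type aldolase, read 8.64 on the embryonic array and was detected on no other. The bound on its first difference was at least 6.53-fold. Pfkfb2 and Pfkfb3 make or remove fructose 2,6-bisphosphate, the activator of phosphofructokinase, and stayed within 2-fold throughout. Pfkfb2 read 8.64, 9.04 and 8.63, and Pfkfb3 read 7.95, 8.24 and 8.59. They and Ugp2 were the 3 measured genes of the list that were not lower in the neonatal than in the embryonic array.

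At the lower part of the pathway, differences from the adult array spread most widely, down to -6.59 for Pgam2, while at the first step the upper part had the lower median, -2.08. Each of its 7 measured genes was called lower in the neonatal array, with a median of -1.67. Gapdh, for glyceraldehyde 3-phosphate dehydrogenase and often used as a reference gene, read 14.60, 13.50 and 12.88. It differed by -1.10 ± 0.12 and -0.63 ± 0.09, and by -1.73 ± 0.12 between embryonic and adult. Pgk1, for phosphoglycerate kinase, read 14.29, 12.38 and 11.45, with differences of -1.90 ± 0.07 and -0.93 ± 0.06. Pkm, for the pyruvate kinase of muscle and proliferating cells, read 14.08, 12.58 and 12.74 on a probe named Pkm2 in the table. Its first difference was -1.50 ± 0.07 and its second 0.16 ± 0.07. Whether that probe tells the M1 and M2 splice forms apart was not examined. Eno2, the enolase known from neurons, read 9.76, 8.65 and 9.56, and was lowest in the neonatal array.

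Pgam2 and Eno3, the muscle forms of phosphoglycerate mutase and enolase, stood apart from the rest at the second step. Pgam2 read 13.81 on the embryonic, 12.14 on the neonatal and 7.22 on the adult array. The neonatal array was lower by 1.67 on the log2 scale (± 0.07), and the adult array was 30.3-fold lower again (-4.92 ± 0.10). Of the 10404 measured genes, 16 had an adult minus neonatal difference as low or lower. Eno3 read 12.83, 11.14 and 7.23, with differences of -1.69 ± 0.08 and -3.91 ± 0.11, which is 15.0-fold. Both were still detected in the adult array, at raw signals of 137.1 and 137.6 against an array median of 57.3. Cardiomyocyte markers had a median of -4.19 over the same pair of arrays, with 14 of 14 lower, and of -1.35 between embryonic and neonatal. Their part in the Pgam2 and Eno3 values was not tested. Pgam1, the general mutase, read 10.15, 7.88 and 7.38, so that its larger difference was the first, at -2.28 ± 0.13, and the second was -0.50 ± 0.16. In the authors' deposited table the ratio of adult to neonatal was 0.0349 for Pgam2, 0.0712 for Eno3 and 0.72 for Pgam1.

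Lactate dehydrogenase links pyruvate and lactate and is built of A subunits, typical of skeletal muscle and glycolytic tissue, and B subunits, typical of the heart. Ldha read 14.73, 13.32 and 12.88, with differences of -1.41 ± 0.07 and -0.44 ± 0.09. Ldhb, by its accession-matched probe, read 13.45, 10.98 and 10.20, with differences of -2.48 ± 0.07 and -0.78 ± 0.08. Both were highest on the embryonic array, and between embryonic and adult Ldhb differed by -3.25 ± 0.06 and Ldha by -1.85 ± 0.08. The Ldhb probe is named in the table for a predicted gene on another chromosome, and which transcript it reads was not examined. The raw embryonic signal of Ldha, 29737.3, was the highest of the list, on an array whose maximum was 39259.2, and 7 members had raw embryonic signals over 20000. Whether such bright signals understate a difference was not tested.

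**Figure D2:**
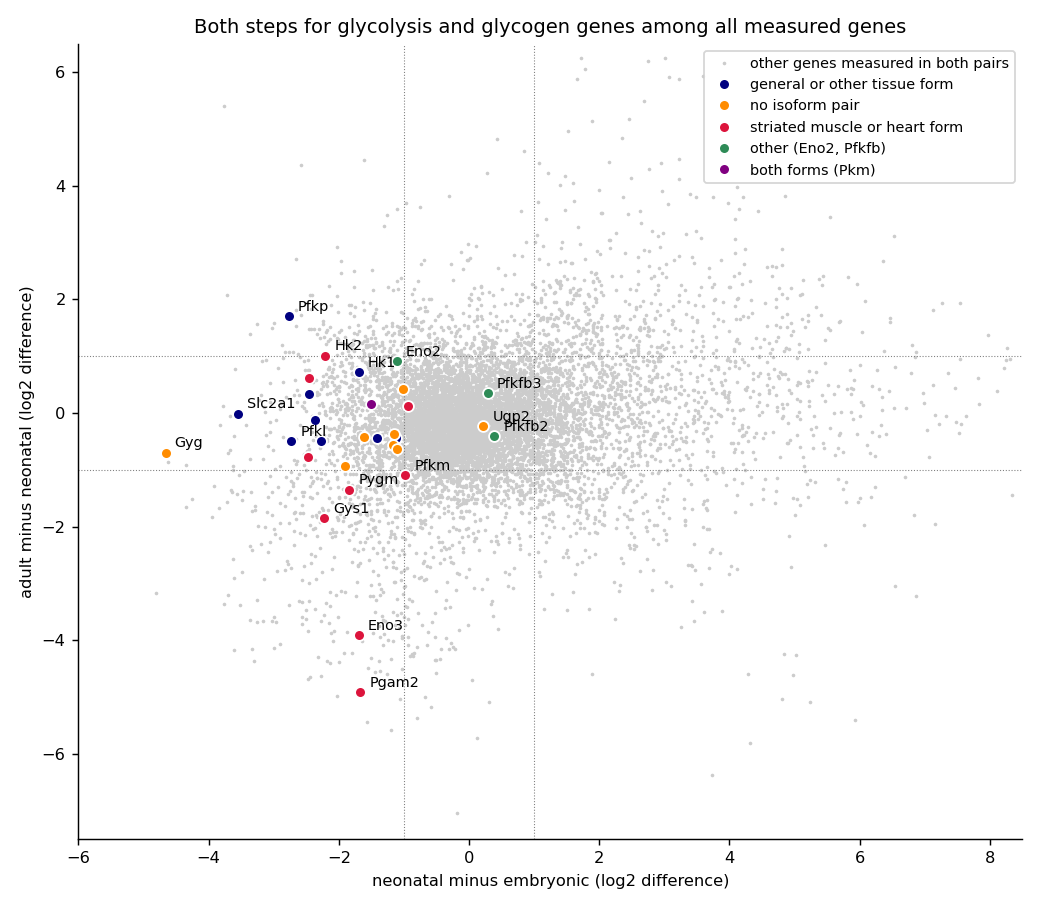
Neonatal minus embryonic log2 difference on the x axis and adult minus neonatal log2 difference on the y axis, for genes measured in both pairs of arrays, with the list in colour by form, Hk2 and Ldhb included. The list lies left of 0 apart from Pfkfb2, Pfkfb3 and Ugp2, and Pgam2 and Eno3 lie far below the others at -4.92 and -3.91.

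Genes that build glycogen were lower as well. Gyg, for the glycogenin that primes a new glycogen particle, read 13.05 on the embryonic, 8.39 on the neonatal and 7.69 on the adult array. It was 25.3-fold lower in the neonatal than in the embryonic array (-4.66 ± 0.11), and 14 of the 10560 measured genes were as low or lower. Its second probe gave -4.20 ± 0.11 for the same pair. Gys1, the glycogen synthase of muscle, read 9.95 and 7.72 and was not detected in the adult array. Its first difference was -2.23 ± 0.13, and it was at least 2.75-fold lower in the adult than in the neonatal array. Ugp2, whose enzyme makes the UDP-glucose that synthase uses, read 10.75, 10.97 and 10.75, the flattest course of the measured genes. The probe named Pgm2, for a phosphoglucomutase, read 14.12, 12.51 and 12.08, with a first difference of -1.61 ± 0.09. The symbols Pgm1 and Pgm2 have been exchanged between annotations: the file's Pgm1 lies on chromosome 5, which RefSeq now names Pgm2, and its Pgm2 has no chromosome, so the gene behind it is not settled.

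Phosphorylases release glucose from glycogen, and their brain, liver and muscle forms were all lower in the neonatal array. Pygb, the brain form that is also present in fetal tissue, read 12.20, 11.07 and 10.63, with a first difference of -1.12 ± 0.09. Pygl, the liver form, read 10.65, 8.19 and 8.53, with -2.46 ± 0.05. Pygm, the muscle form, read 9.42 and 7.58 and was not detected in the adult array, at differences of -1.84 ± 0.10 and then at least 2.51-fold. Pygm thus had a second difference past 2-fold, where Pygb differed by -0.44 ± 0.11 and Pygl by 0.34 ± 0.07. Phosphorylase kinase switches these enzymes on. Its muscle α subunit gene Phka1 read 8.01, 7.07 and 7.19 and its β subunit gene Phkb 8.56, 7.54 and 7.96. The muscle catalytic subunit gene Phkg1 was seen in the adult array alone, at 6.38, near the lowest detected signal of 6.26. Its difference of 1.38 from the neonatal array amounts to at least 1.36-fold.

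Muscle and general forms of the same enzyme can be compared by how much each differed between ages. Levels of different probes were not compared. Here Ldhb is the heart form set against Ldha, and Aldoa, present in muscle and elsewhere, is set against Aldoc. Of the 10 measured general or other forms, 10 were called lower in the neonatal than in the embryonic array, with a median of -2.42. Of the 8 measured muscle forms 6 were, with a median of -1.76, beside 19.1% of all genes. Between neonatal and adult, 0 of 9 general forms were called lower and 1 higher, with a median of -0.13. Of the 8 muscle forms 5 were called lower and 1 higher, with a median of -1.23, beside 14.1% and 12.4% of all genes. These counts hold for quantile normalization only. With median centring the list's median at this step was -1.17 and 42.5% of all genes were lower, and the forms were not counted under that scaling. Over the same arrays 14 of 14 cardiomyocyte markers were lower, with a median of -4.19, and skeletal muscle markers had a median of -0.07. Their part in the values of the muscle forms was not tested.

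Among pairs with both genes detected on both arrays, phosphoglycerate mutase had the widest gap at the second step, the muscle form changing by -4.43 ± 0.19 relative to the general one. Pfkm changed by -2.80 ± 0.10 relative to Pfkp and by -0.59 ± 0.11 relative to Pfkl. Ldhb changed by -0.34 ± 0.12 relative to Ldha, and Hk2 upward relative to Hk1, by 0.29 ± 0.09. On the brightest probes the muscle or heart form was thus the lower one in 4 of these 5 pairs, in 2 of them by at least 1. A dimmer Hk1 probe, not detected on the neonatal array, differed by -3.30 at the first step and 1.37 at the second. By measured values Hk2, at -2.21 and 1.01, would be higher relative to it at the first step and lower at the second. The direction of the Hk2 pair thus rests on the choice of probe at both steps. Pygm was not detected on the adult array, so that its difference from Pygb and Pygl has only a bound and is left out. At the first step 7 pairs had both genes detected on their brightest probes, with the muscle or heart form higher relative to its partner in 4 and lower in 3. Pfkm changed by 1.75 ± 0.10 relative to Pfkl and by 1.79 ± 0.11 relative to Pfkp on its brighter probe. On its dimmer probe Pfkm differed by -3.22, below Pfkl and the brighter Pfkp probe, but above a dimmer Pfkp probe at -4.58. Neither dimmer probe was detected on the neonatal array. The direction of these 2 pairs therefore rests on the choice of probe. Pgam2 changed by 0.61 ± 0.15 relative to Pgam1, Pygm by 0.63 ± 0.11 relative to Pygl and by -0.72 ± 0.14 relative to Pygb. Pfkm and Pygm each enter 2 pairs, so the pairs are not independent, and Hk2 and Ldhb enter the pairs but not the counts of forms.

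**Figure D3:**
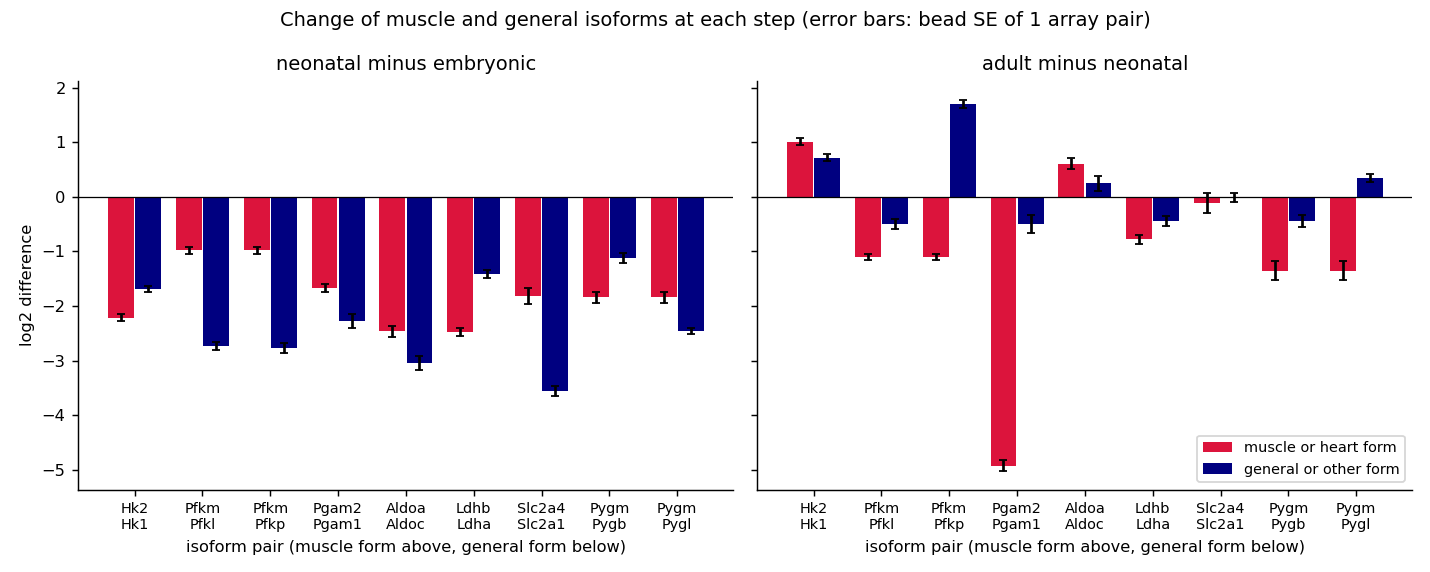
Log2 difference (y axis) of the muscle or heart form, in red, and of the general or other form, in blue, for 9 isoform pairs (x axis) at each step, with bead standard errors of 1 pair of arrays. At the second step Pgam2 reaches -4.92 beside -0.50 for Pgam1. Slc2a4 and Aldoc were detected on the embryonic array alone, so their bars give only a bound at the first step and no bound at the second. Pygm was not detected on the adult array, so its bars at the second step give only a bound.

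Several genes had more than 1 probe, and the probes did not always give the same size of difference. Between embryonic and neonatal, 7 members had at least 2 measured probes, and the sign was the same within each of the 7 and the call within 6. Pfkm had -0.98 on its bright probe and -3.22 ± 0.18 on a dim one, which changes its call. Hk1 gave -1.69 and -3.30 ± 0.25, Pfkp -2.77 and -4.58 ± 0.22, and Tpi1 -1.16 and -2.98 ± 0.13. The dimmer probe had the larger difference in these genes and in Gpi1, and the smaller one in Gyg and in Gys1, at -1.57 ± 0.23. Between neonatal and adult, 4 members could be compared, and the 2 Tpi1 probes had opposite signs, at -0.56 and 0.99, both under 2-fold. The call was the same in Pfkp and Tpi1, and differed in Hk1, at 0.72 and 1.37, and in Gyg, at -0.70 and -1.25.

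**Figure D4:**
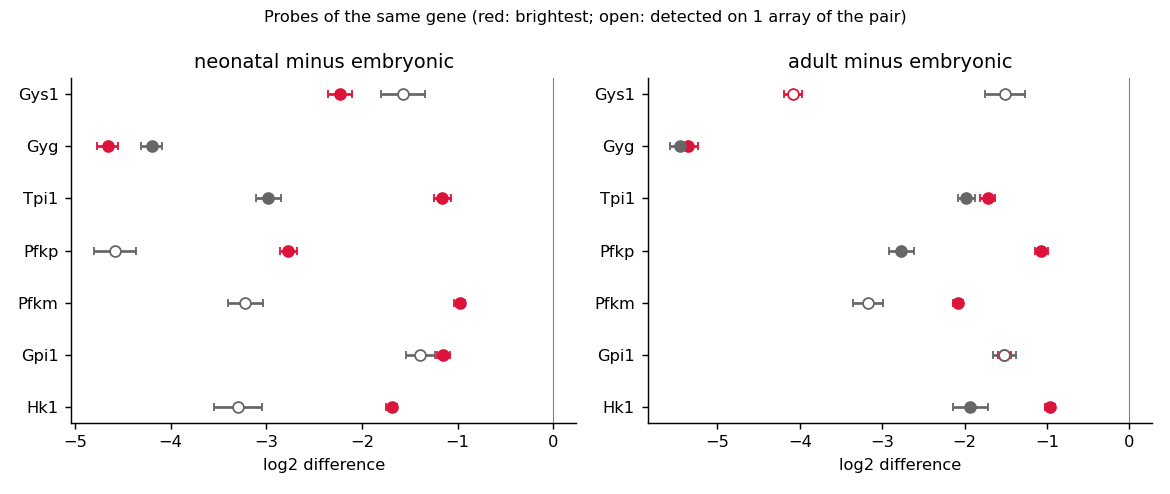
Log2 difference (x axis) of each measured probe for the 7 members (y axis) with several measured probes, with bead standard errors, for neonatal minus embryonic and adult minus embryonic. Gyg probes lie close together at -4.66 and -4.20, and the 2 Tpi1 probes lie apart at -1.16 and -2.98.

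Other genes of glycogen metabolism, outside the list, were likewise lower in the neonatal array, in 7 of 11 measured and higher in 0, with a median of -1.12, beside 19.1% lower and 21.9% higher of all genes. Ppp1r3c and Ppp1r3b, which target protein phosphatase 1 to glycogen, differed by -2.54 and -2.35, and Gsk3b and Phkg2 by -0.07 and -0.43. Between neonatal and adult, 2 of 12 were lower and 1 higher, near the 14.1% and 12.4% of all genes, with Ppp1r3b at -1.79, Ppp1r3d at -1.57, the lysosomal glucosidase gene Gaa at 1.37 and Pgm3 at 0.88.

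Other sugar and lactate carriers and their partner proteins were measured for 6 genes at the first step, of which 2 were called higher and 1 lower (median 0.75). Those counts are near the shares of all genes, 21.9% and 19.1%. Slc2a10 was at least 2.04-fold and Slc2a6 at least 1.31-fold higher, while Emb and Bsg, chaperones of lactate carriers, differed by -1.38 and -0.75. In the adult array 2 of 7 were called higher than in the neonatal one, beside 12.4% of all genes, Slc2a9 by at least 1.5-fold and Slc2a6 with a difference of 1.11, and Slc16a7 and Bsg differed by -0.95 and 0.21. Of 14 further glycolytic enzymes and bisphosphate regulators, 6 were measured between embryonic and neonatal, with 4 called higher, beside 21.9% of all genes, and a median of 1.19. Bpgm, which makes the 2,3-bisphosphoglycerate of red cells, was at least 2.56-fold and Hk3, a hexokinase of white blood cells, at least 1.87-fold higher, and Minpp1 and Adpgk differed by -0.58 and 0.31. Also called higher were Pfkfb4, by 2.59-fold, and Fbp2, whose bound was only 1.05-fold, so the bounds of Hk3 and Fbp2 lie under 2-fold. Bpgm was at least 2.59-fold and Fbp2, the muscle fructose bisphosphatase, at least 1.06-fold lower in the adult than in the neonatal array, where Pfkfb4 and Hk3 differed by 0.36 and 0.05.

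**Figure D5:**
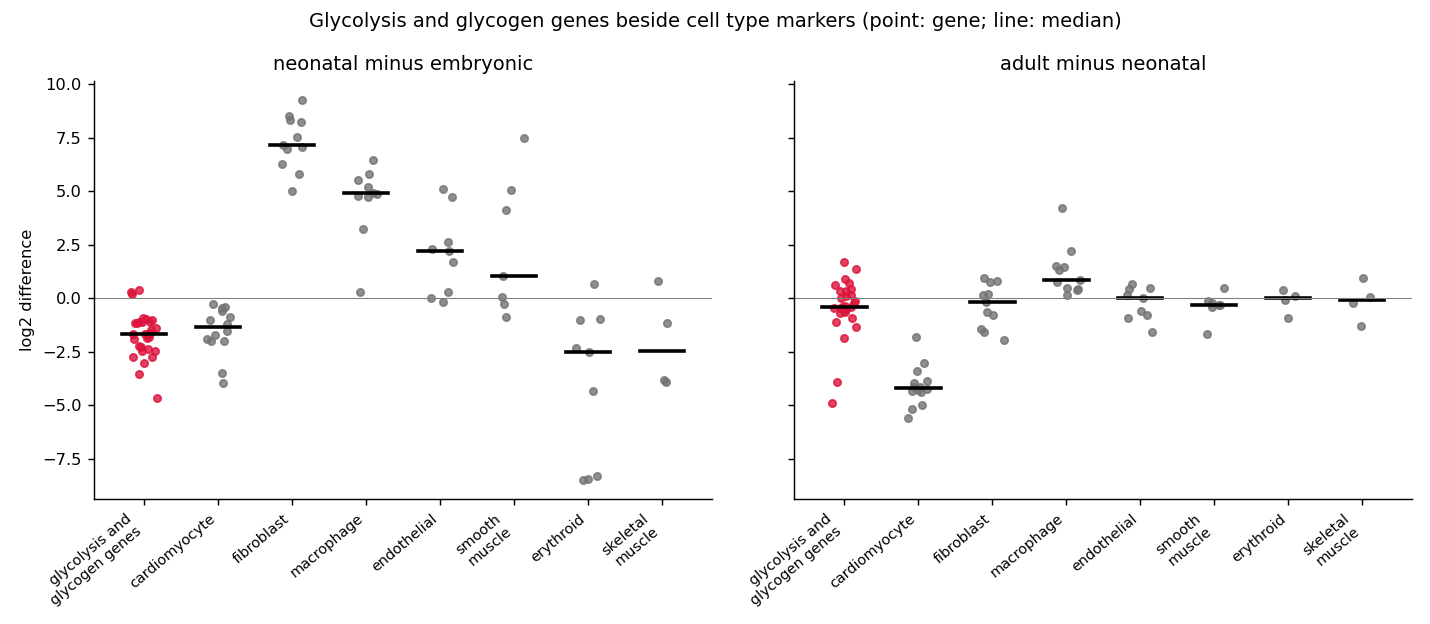
Log2 difference (y axis) of each measured gene of the list, in red, and of markers of 7 cell types, in grey, with the median of each set as a line, for both steps. At the first step the list's median is -1.68, with cardiomyocyte markers at -1.35, erythroid at -2.51 and skeletal muscle at -2.49, and the other sets above 0. At the second step the list's median is -0.41, with these 3 sets at -4.19, 0.01 and -0.07.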

How the data were processed

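The authors deposited, per the file headers, a table of raw probe intensity for 46632 probes with the bead standard deviation, the counts of beads and a detection score, a fraction whose complement was used as the detection p. They also deposited a matrix of processed intensity and, per the file headers, a table of ratios between ages with their natural log. Per the labels' protocols, cRNA was biotin-labelled with an Ambion kit; the scanner software is not named in these sources. From raw intensity, neqc of limma 3.58.1 (R 4.3.3) subtracted background (offset 16), applied quantile normalization and returned log2 values, which hides any shift common to all genes of an age. Other probes were named through RefSeq of GRCm38.p6 by accession (11851 probes) or symbol, 133 contradictory probes were left out and 11771 had no gene. The median number of beads per probe was 37, and 30.2% of probes were detected on the embryonic, 32.9% on the neonatal and 30.3% on the adult array. Calls need a 2-fold difference and a detection p under 0.01 on 1 array of the pair. The calling steps were tested on simulated data. All members are named; of each other pathway list, the 2 highest and 2 lowest differences per step are. The members, lists, forms and rules were chosen with earlier results of these data known, which had already shown glycolysis genes lower in the neonatal array.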

Additional observations from a re-analysis of the deposited data

How the results depend on the processing

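The 61 differences whose measured values were 2-fold or more, with Hk2 and Ldhb and the 2 of Phkg1 whose bounds are smaller, kept their sign under the 5 alternative values tried (no background correction, offset of 50, median centring, the authors' processed intensity and the mean over probes), and 289 of the 305 recomputed values were still 2-fold. All settings read the same arrays, and for genes with 1 probe the mean over probes repeats the reported value. Part of this agreement was therefore fixed in advance. Between embryonic and neonatal, the median of the list was -1.46 without a detection filter. Between neonatal and adult, 1 gene was higher without background correction, with the offset of 50, with median centring, with detection required on both arrays, at 3-fold, and with undetected sides raised to the lowest detected signal, an alternative chosen after seeing the data. The number lower was 17 with median centring, and 3 with the mean over probes, with detection on both arrays or at 3-fold. Over all genes 42.5% were lower with median centring, 9.48% with the mean over probes and 9.28% with detection on both arrays. Shares higher over all genes were 9.36% without background correction, 9.91% with the offset of 50 and 5.51% with median centring. They were 10.8% with detection on both arrays and 11.1% with raised undetected sides. No share over all genes is given at 3-fold, so the counts at 3-fold stand without a background. The median was -1.17 with median centring and -0.18 without the detection filter. Between embryonic and adult, 0 genes were higher with the offset of 50, with detection on both arrays and with raised undetected sides. Of all genes 22.6%, 17.3% and 21.4% were higher in these settings. The median of the list was -2.56 with median centring and -2.09 in the authors' processed intensity. The cause of these shifts was not tested. No paired analysis was possible because each age has 1 array, and no array could be left out for the same reason. Dim probes, below 6.27, 5.93 and 6.26 on the embryonic, neonatal and adult arrays, give bounds only.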

Other observations

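Genes of the pentose phosphate pathway, which branches off at glucose 6-phosphate and yields NADPH and ribose, had few calls. All 7 were detected on the 3 arrays, and their summed linear signal was 20858 on the embryonic, 25318 on the neonatal and 20971 on the adult array. Between embryonic and neonatal 1 was at least 2-fold higher and 0 lower, with a median of 0.66, beside 21.9% higher and 19.1% lower of all genes. Tkt, for transketolase, differed by 1.42 and G6pdx, for glucose 6-phosphate dehydrogenase, by 0.97, and Pgd and Taldo1 by -0.41 and -0.23. Between neonatal and adult 1 was higher and 1 lower, beside 12.4% and 14.1% of all genes: G6pdx by 1.27, with Rpia at 0.90, and Pgls at -1.09, with Taldo1 at -0.39. Macrophage and fibroblast markers were higher in the neonatal than in the embryonic array, and their part in these values was not tested.

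Of hypoxia-responsive genes and regulators of glycolysis, 3 of 13 measured were higher and 3 lower in the neonatal than in the embryonic array, with a median of 0.22. These counts are near the shares of all genes, 21.9% and 19.1%. Pdk1, whose kinase keeps pyruvate out of mitochondria, read 11.63, 8.51 and 8.13, a first difference of -3.12, and Egln1, an oxygen-sensing prolyl hydroxylase, differed by -1.76. Ndrg1 and Adm, both known to respond to low oxygen, differed by 1.88 and 1.52 and were highest in the adult array, at 10.73 and 10.71. Between neonatal and adult 6 of 14 were higher and 1 lower, beside 12.4% and 14.1% of all genes. Myc was detected in the adult array alone and was at least 4.58-fold higher there, P4ha1 differed by 1.64, Egln3 by -1.19 and Ankrd37 by -0.93. Hif1a was detected on no array.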
